A study of Mus musculus with 16 samples.

Results

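Synaptic adhesion molecules are cell-surface and secreted proteins that join the pre- and postsynaptic membranes. The genes described here are the rows of the deposited expression table whose symbols belong to 13 families: the neurexins (Nrxn), neurexophilins (Nxph), neuroligins (Nlgn), leucine-rich repeat transmembrane proteins (Lrrtm), latrophilins (Adgrl), Flrt, Slitrk and Lrfn proteins, calsyntenins (Clstn), SynCAMs (Cadm), contactins (Cntn), contactin-associated proteins (Cntnap) and Lingo proteins. The table held 55 such genes among 21999. Poly(A) RNA was sequenced from the left hippocampus and the left cortex of male mice at postnatal day 47. There were 4 groups of 4 libraries: control hippocampus (DJ17, DJ20, DJ21 and DJ22), hippocampus with a conditional knockout of Foxp1 (DJ15, DJ16, DJ18 and DJ19), control cortex (DJ3, DJ6, DJ7 and DJ8) and conditional knockout cortex (DJ1, DJ2, DJ4 and DJ5). Per the design text the knockout is in pyramidal neurons of the forebrain and controls are littermates, while the sources used here do not give the Cre driver, the deleted part of Foxp1 or say if both regions were taken from 1 mouse. The design text calls the replicates independent. Wherever 4 values are given for a group, they follow the order of libraries just listed.

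Neurexins are presynaptic hubs that bind neuroligins, Lrrtm proteins, latrophilins and neurexophilins across or beside the synaptic cleft. Slitrk and Lrfn proteins on the postsynaptic side meet presynaptic receptor phosphatases of the LAR type, and Flrt proteins bind latrophilins. Contactins and contactin-associated proteins are immunoglobulin-type and neurexin-like molecules, some of which organise the nodal regions of myelinated axons. Foxp1 is a forkhead transcription factor of many forebrain pyramidal neurons.

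Foxp1 itself was at 171 to 276 CPM in control hippocampus and 102 to 139.9 CPM in knockout hippocampus, and at 265 to 298 CPM in control cortex and 96.0 to 144 CPM in knockout cortex. Its values did not overlap between genotypes in either region, in keeping with the labels (log2 fold change -0.92, SE 0.14, limma adjusted p = 0.0072 in hippocampus; log2 fold change -1.34, SE 0.09, limma adjusted p = 3.9e-08 in cortex). CPM is counts-per-million, and the depth recovered from it was 6943136 to 14817870 reads per library, so that 1 read was worth 0.0675 to 0.144 CPM. Changes are given on the log2(CPM + 0.5) scale, which understates those of genes with few reads. Between genotypes they are knockout minus control. A gene was called when the limma p-value, adjusted over all genes tested, was below 0.05. In bulk tissue, fewer cells of a type and less RNA per cell cannot be told apart. The summed level of 4 pan-neuronal markers, of which 2 were called lower in cortex and 0 in hippocampus, was, in knockouts against controls, 8156 to 8494 against 9865 to 10376 CPM in cortex and 5703 to 5999 against 6243 to 6697 CPM in hippocampus. The 8 markers of oligodendrocytes and myelin summed to 3069 to 4131 CPM in knockout cortex and 5165 to 7080.1 CPM in control cortex. In hippocampus the myelin sum was 13431 CPM in control DJ17, 5134 to 7060.2 CPM in the other controls and 6416 to 9161 CPM in knockouts. No marker on these lists was at 0 in every library.

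Because Foxp1 binds forkhead motifs, promoters are shown for Lrrtm4, whose genotype effect had the smallest p for a difference between regions, and for Lrrtm1 and Cntnap2, the members called in hippocampus. RefSeq promoter windows (GRCm38.p6, 250 bases before to 50 after a start site) were found for 40 of the 55 members, 56 windows in all. The forkhead motif TGTTTAC, searched on both strands, was in 0 of the 56 windows and in 3.65% of all 32851 promoter windows. The looser form TGTTTNC, which includes the former, was in 7 of the 56 (12.5%) and in 20.5% of all. Lrrtm4 and Cntnap2 were among those 7. In GENCODE M21 (GRCm38) the genes span chr6:80018877-80810143 (Lrrtm4), chr6:77242689-77257791 (Lrrtm1) and chr6:45059357-47304213 (Cntnap2), all on the plus strand. The windows below are on the plus strand of chromosome 6, at chr6:80018627-80018926 and chr6:80019393-80019692 for 2 start sites of Lrrtm4, chr6:77242227-77242526 for Lrrtm1 and chr6:45059811-45060110 and chr6:47244146-47244445 for 2 start sites of Cntnap2. Capitals mark TGTTTNC.
Lrrtm4, upstream start: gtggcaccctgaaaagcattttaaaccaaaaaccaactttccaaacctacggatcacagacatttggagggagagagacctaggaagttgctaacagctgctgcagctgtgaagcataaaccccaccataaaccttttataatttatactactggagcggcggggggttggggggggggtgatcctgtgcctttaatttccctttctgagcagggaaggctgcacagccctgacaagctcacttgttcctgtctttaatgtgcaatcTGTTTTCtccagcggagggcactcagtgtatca
Lrrtm4, downstream start: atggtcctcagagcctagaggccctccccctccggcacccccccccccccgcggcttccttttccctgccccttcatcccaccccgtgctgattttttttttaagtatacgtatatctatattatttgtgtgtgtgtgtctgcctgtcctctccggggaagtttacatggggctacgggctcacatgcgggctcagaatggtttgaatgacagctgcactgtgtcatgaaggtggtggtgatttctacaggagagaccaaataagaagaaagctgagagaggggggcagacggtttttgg
Lrrtm1: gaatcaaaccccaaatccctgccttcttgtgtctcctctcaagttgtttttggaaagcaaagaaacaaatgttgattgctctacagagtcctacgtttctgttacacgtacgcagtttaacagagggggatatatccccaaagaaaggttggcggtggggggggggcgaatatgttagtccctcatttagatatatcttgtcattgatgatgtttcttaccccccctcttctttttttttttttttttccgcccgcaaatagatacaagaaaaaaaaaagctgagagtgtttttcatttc
Cntnap2, upstream start: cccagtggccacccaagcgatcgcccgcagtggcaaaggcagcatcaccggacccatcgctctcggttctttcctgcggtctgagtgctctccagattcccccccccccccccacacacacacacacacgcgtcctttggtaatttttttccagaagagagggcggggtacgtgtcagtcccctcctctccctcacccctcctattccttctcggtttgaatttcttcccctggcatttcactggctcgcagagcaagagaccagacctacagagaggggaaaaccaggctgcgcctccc
Cntnap2, downstream start: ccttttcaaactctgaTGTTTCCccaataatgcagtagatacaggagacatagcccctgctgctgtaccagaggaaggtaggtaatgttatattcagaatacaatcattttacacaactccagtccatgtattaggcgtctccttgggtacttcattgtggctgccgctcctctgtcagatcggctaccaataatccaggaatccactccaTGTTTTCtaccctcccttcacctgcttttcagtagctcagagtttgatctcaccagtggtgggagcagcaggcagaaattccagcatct
The upstream Lrrtm4 window held 1 match, beginning 18 bases after the start site. The downstream Cntnap2 window held 2, beginning 234 and 39 bases before it. The downstream Lrrtm4 window, the Lrrtm1 window and the upstream Cntnap2 window held no match. A match describes the letters of a window and is not a measured binding site.

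The members covered a wide range of levels. Per kilobase of exon, which allows genes to be compared, the highest mean over the 16 libraries belonged to Clstn1, a calsyntenin that links vesicles to kinesin, at 105 to 225 CPM per kilobase. It was followed by the SynCAM gene Cadm2 at 77.5 to 149.6 CPM per kilobase. The lowest were Lingo4 at 0 to 0.172, Nxph4 at 0.107 to 1.12 and Slitrk6 at 0.104 to 1.80 CPM per kilobase. Lingo4 averaged 0.331 CPM and was the 1 member below the expression minimum of 0.5 CPM, so 54 members were tested in every comparison. The order at the top depended on the region: in control cortex Clstn1 stood at 222 ± 4.22 and Cadm2 at 133 ± 5.20 CPM per kilobase (SD, n = 4), without overlap, whereas in control hippocampus they stood at 111 ± 5.32 and 114 ± 25.0, within their spread. Within families 1 gene usually led. Nrxn3 ran above Nrxn2 in every group. Cntn1 was the most abundant contactin and Lrrtm2 the most abundant Lrrtm gene in every group, while the 3 neuroligins lay close together, at 16.1 ± 0.654, 19.3 ± 0.901 and 14.7 ± 0.530 CPM per kilobase for Nlgn1, Nlgn2 and Nlgn3 in control cortex.

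**Figure D1:**
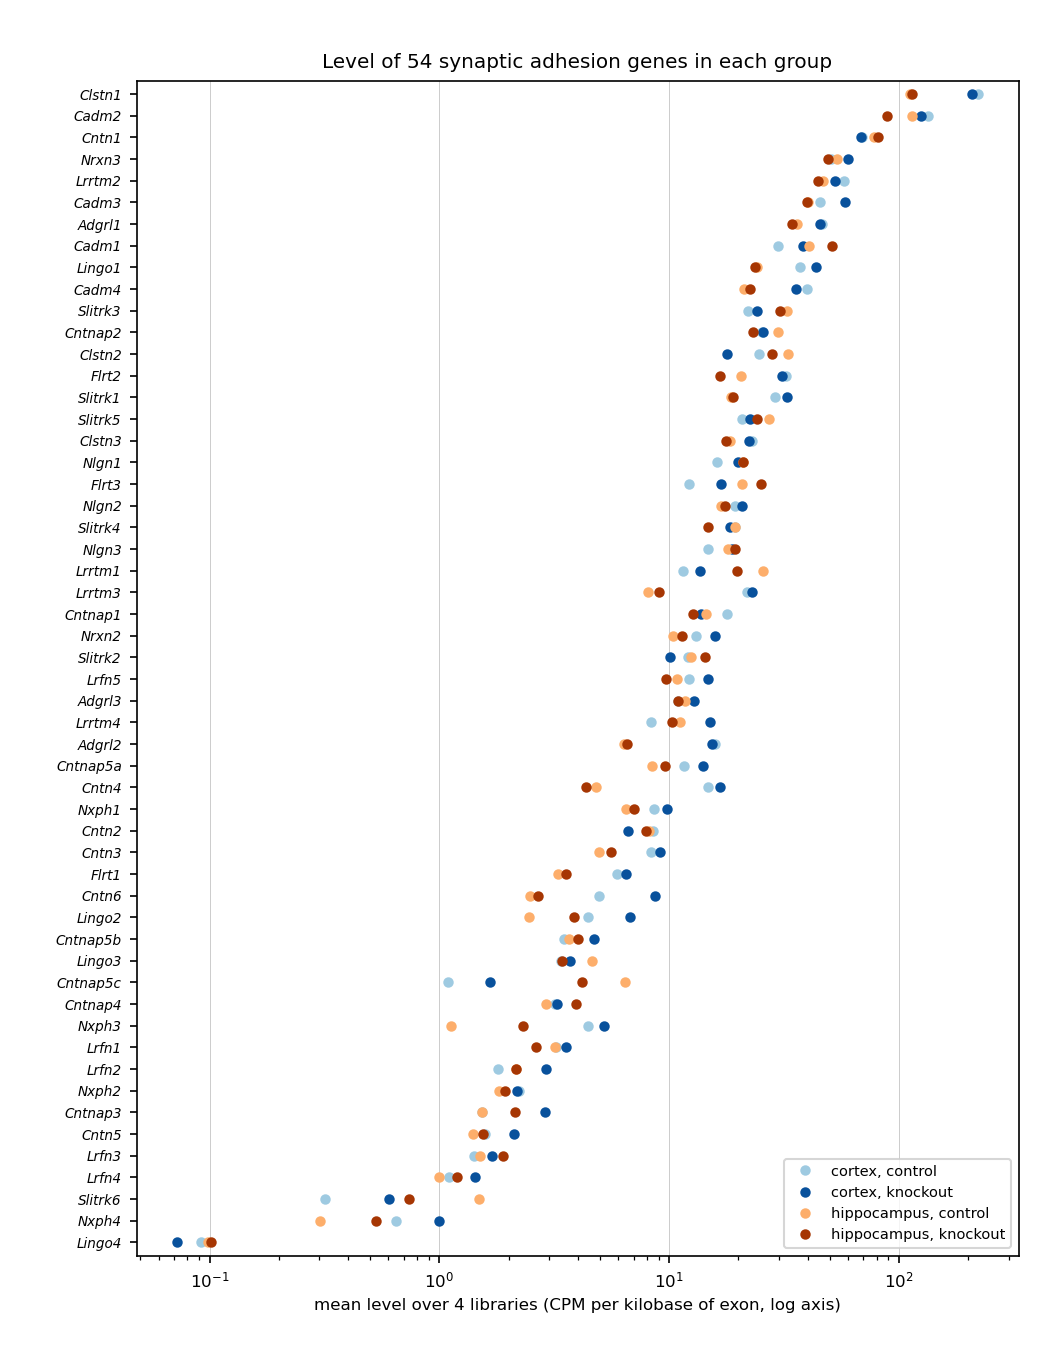
Mean level of 54 members in CPM per kilobase of exon (log axis), 1 row per gene ordered by the mean over all 16 libraries, with 1 point for each group of 4 libraries. Clstn1 and Cadm2 head the list, and the points of Cntnap5c, Nxph3 and Slitrk6 lie far apart between groups.

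Control hippocampus and control cortex differed in many members, in several families in both directions. Of the 54 members, 36 were called between control hippocampus and control cortex (13 higher and 23 lower in hippocampus), against 37.8% of all genes tested. The median log2 fold change of the members, hippocampus minus cortex, was -0.16, and that of all genes 0.02. Members were also more abundant than most genes, with a median level of 91.1 CPM against 21.3 CPM over all genes tested in cortex. Higher in hippocampus were 2 Lrrtm genes, 3 Slitrk genes, Nlgn1, Nlgn3 and others. Lower were, among others, 3 neurexophilins, 3 contactins and both Lingo1 and Lingo2. The other 2 Lrrtm genes, 1 Slitrk gene and Nlgn2 were also lower, and 1 contactin was higher.

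The 8 largest called differences in each direction are given, chosen among members whose groups did not overlap. Cntnap5c, a contactin-associated protein gene, differed most between control regions. It was at 24.4, 26.0, 27.0 and 23.6 CPM in the 4 hippocampal controls and at 5.29, 4.65, 3.67 and 3.56 CPM in the cortical ones (log2 fold change 2.44, SE 0.13, limma adjusted p = 1.6e-08). Slitrk6, the least abundant Slitrk gene, was at 7.62, 5.64, 5.82 and 6.14 against 1.39, 0.443, 2.12 and 1.45 CPM (log2 fold change 1.96, SE 0.27, limma adjusted p = 6.5e-05). The cortical values of Slitrk6 rest on a handful of reads. Lrrtm1, a neurexin-binding protein of excitatory postsynapses, was at 75.8, 81.2, 75.1 and 79.4 CPM in hippocampus and 32.6, 31.4, 38.3 and 37.1 CPM in cortex (log2 fold change 1.15, SE 0.08, limma adjusted p = 9.8e-08). Lrrtm4, a postsynaptic protein that binds heparan sulfate proteoglycans and is known from dentate granule cells, was at 77.1, 71.5, 58.0 and 67.7 against 54.3, 46.7, 50.3 and 52.8 CPM (log2 fold change 0.42, SE 0.09, limma adjusted p = 0.0020). Each hippocampal control exceeded each cortical control for both Lrrtm genes. Smaller excesses without overlap were those of Flrt3 (88.9 to 108 against 39.8 to 68.1 CPM, 0.80 on the log2 scale), Slitrk3 (145 to 166 against 84.6 to 115 CPM, 0.57), Cadm1 (333 to 508 against 275 to 327 CPM, 0.43) and Clstn2 (166 to 210.2 against 127 to 152 CPM, 0.42). Control DJ3 was the low cortical library for Flrt3 and Slitrk3.

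In the other direction Nxph3, a secreted neurexin ligand, was at 1.77, 1.52, 3.27 and 2.90 CPM in control hippocampus and 8.35, 9.74, 8.90 and 10.1 CPM in control cortex (log2 fold change -1.82, SE 0.20, limma adjusted p = 1.1e-05). Cntn4, a contactin, was at 43.1, 28.2, 46.0 and 46.0 against 131, 121, 118 and 131 CPM (log2 fold change -1.63, SE 0.13, limma adjusted p = 5.0e-07). Among the hippocampal libraries DJ20 was low for Cntn4. Lrrtm3 had 30.4 to 40.8 against 85.3 to 99.5 CPM (-1.43 on the log2 scale), the reverse of Lrrtm1 and Lrrtm4. The latrophilin gene Adgrl2 had 81.4 to 100.4 against 220.1 to 235 CPM (-1.31), Cntn6 11.0 to 18.96 against 29.8 to 33.1 CPM (-1.01) and Clstn1 489.8 to 549.6 against 1004 to 1049 CPM (-0.99). Cadm4 had 42.5 to 48.7 against 75.5 to 95.9 CPM (-0.91) and Lingo2 17.1 to 25.2 against 30.2 to 40.6 CPM (-0.85). Each of these 8 genes, chosen for groups that did not overlap, stayed called whichever of the 8 libraries was dropped (limma). The calls of Clstn3, Cadm3, Nlgn2 and Nxph4 did not. Clstn3 lost its call without cortical DJ6 (limma adjusted p = 0.065), Cadm3 without DJ3, DJ6, DJ7, DJ8 or DJ17 (up to 0.11), Nlgn2 without any library but DJ21 (up to 0.10) and Nxph4 without any but DJ17 (up to 0.12).

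Many members differed between genotypes in cortex. Of the 54 tested, 21 were called, 17 higher and 4 lower in knockouts, against 13.5% of all genes tested (7.64% higher and 5.83% lower). Lrrtm4, Cntnap3, Cntn6, Lrfn2 and Lingo2 rose most, and the 4 that fell were Clstn2, Cntnap1, Cntn2 and Slitrk2. The median log2 fold change of the 54 members was 0.16, and that of all 13713 genes 0.03. The summed level of the 55 members was 11203 to 11373 CPM in knockouts and 10473 to 11034 CPM in controls. Of the 21 called members 18 stayed called whichever single library was dropped (limma). Knockout and control values overlapped for Flrt3 alone, but how often called genes separate over the whole table was not computed.

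Marker levels that moved with genotype in cortex stand beside these calls. All 8 myelin markers were called lower in knockouts (sums above), 4 of 6 upper-layer markers were called higher and 1, Rorb, lower (1189 to 1311 against 949 to 1046 CPM summed), and 5 of 7 striatal markers were called higher (634 to 963 against 250.3 to 562 CPM summed). Of 7 deep-layer markers 1 was called higher and 3 lower (616 to 674 against 605 to 709 CPM), of 6 interneuron markers 2 lower (833 to 869 against 826 to 899.9 CPM), and of 5 dentate granule markers tested 3 higher (753 to 904 against 480.4 to 518 CPM over the 7 listed). Most of that granule sum was Calb1, which is also on the upper-layer list, and Stxbp6. Their means were 246 and 222 CPM in controls and 456 and 326 CPM in knockouts. Prox1 averaged 29.6 CPM in controls and 28.4 CPM in knockouts, and Dsp, Lct and C1ql2 averaged below 1 CPM in both. When each library's myelin level entered the model, an alternative chosen after seeing the data, 4 of the 21 kept their call: Lrrtm4, Cntn6, Cntnap3 and Clstn2. Calls over all genes went from 13.5% to 1.37% in that model. The log2 fold change had the same sign in 20 of 21, and the myelin levels of the 2 genotypes did not overlap. When the striatal level entered it instead, also added later, 14 of the 21 kept their call and Cntnap5a, Cntnap5b, Flrt3, Lingo1, Lrfn2, Lrfn5 and Slitrk2 did not (8.15% of all genes called). Restricted to DJ4 through DJ8, a choice likewise made after seeing the data, 19 of the 21 kept their call (14.2% of all genes called). The part of myelin, cortical layer, interneuron and striatal content in these differences was not tested beyond those fits, nor was that of the genes on the granule list.

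Among the postsynaptic neurexin partners, Lrrtm4 rose most. It was at 54.3, 46.7, 50.3 and 52.8 CPM in the 4 controls and 105, 92.4, 87.0 and 85.8 CPM in the 4 knockouts (log2 fold change 0.85, SE 0.08, limma adjusted p = 5.6e-07). The lowest knockout exceeded the highest control by more than the range within either group. Nlgn1, the neuroligin of excitatory synapses, was at 213, 216, 206 and 228 against 272, 279, 252 and 266 CPM (log2 fold change 0.31, SE 0.05, limma adjusted p = 0.00048). Nlgn3, found at both excitatory and inhibitory synapses, was at 136, 133, 143 and 133 against 173, 170.1, 169 and 182 CPM (log2 fold change 0.35, SE 0.05, limma adjusted p = 0.00018). Both neuroligins were higher in every knockout than in any control. Nlgn3 shares 41.2% of its exon bases with Gm21986 on the same strand, and Nlgn1 9.16% with A830092H15Rik on the opposite strand. Nlgn2, the neuroligin of inhibitory synapses, had 0.10 (SE 0.06, limma adjusted p = 0.34) and was not called. Lrrtm1, Lrrtm2 and Lrrtm3 were not called either, at 0.24, -0.13 and 0.08.

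Of the presynaptic hubs, Nrxn2 and Nrxn3 rose. Nrxn3 was at 665, 606, 653 and 635 CPM in controls and 789, 763, 736 and 744 CPM in knockouts (log2 fold change 0.25, SE 0.05, limma adjusted p = 0.0013). Nrxn2 was at 180.0, 184, 179.6 and 181 against 215, 217, 239 and 199.8 CPM (log2 fold change 0.26, SE 0.06, limma adjusted p = 0.0038). Every knockout exceeded every control for both, and the Nrxn2 controls lay within 5 CPM of one another. In a single fit of all 16 libraries Nrxn2 had a limma adjusted p of 0.062. None of the 4 neurexophilins was called (log2 fold changes of 0.02 to 0.44).

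Among latrophilins and their Flrt ligands 1 of 3 and 1 of 3 rose. Adgrl3, a postsynaptic latrophilin, was at 197, 186, 187 and 202 CPM in controls and 229.6, 233, 229.6 and 215 CPM in knockouts, without overlap (log2 fold change 0.23, SE 0.05, limma adjusted p = 0.0051). Flrt3, its ligand, was at 39.8, 63.2, 65.2 and 68.1 against 69.9, 63.1, 96.3 and 98.6 CPM (log2 fold change 0.47, SE 0.15, limma adjusted p = 0.0498). DJ3 was low among controls, knockout DJ2 lay below 3 of the 4 controls, and knockouts DJ4 and DJ5 were the highest. The call of Flrt3 was lost without DJ3, DJ6, DJ7, DJ4 or DJ5 (adjusted p up to 0.14 with limma), by edgeR (0.078), with a pseudocount of 0.1 (0.052), a minimum of 1 CPM (0.051) or no minimum (0.096), after rescaling by median-of-ratios (0.086) or quantiles (0.084) and in the fit of all 16 libraries (0.054). With the myelin covariate its log2 fold change was -0.07.

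Of the members that meet LAR-type phosphatases, 2 of 5 Lrfn genes rose and 1 of 6 Slitrk genes fell. Lrfn2, which binds the scaffold PSD-95, was at 5.15, 6.09, 6.93 and 4.78 CPM in controls and 7.96, 8.58, 10.5 and 10.1 CPM in knockouts (log2 fold change 0.66, SE 0.15, limma adjusted p = 0.0069). Lrfn5 was at 107, 119, 115 and 124 against 146, 145, 142 and 133 CPM (log2 fold change 0.28, SE 0.06, limma adjusted p = 0.0032). Neither overlapped between genotypes. Slitrk2 was the 1 member of its family called, at 98.7, 96.5, 96.7 and 98.4 CPM in controls and 85.0, 84.1, 81.2 and 76.5 CPM in knockouts (log2 fold change -0.26, SE 0.06, limma adjusted p = 0.0057). Its 4 controls lay within 3 CPM, and each knockout was lower. The other 5 Slitrk genes had log2 fold changes of -0.07 to 0.74 and were not called, Slitrk6 at 0.74 having the largest SE, 0.32.

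The calsyntenin Clstn2, a postsynaptic membrane protein of cortical and hippocampal neurons, fell most of all members in cortex. It was at 132, 152, 127 and 149 CPM in controls and 98.7, 96.7, 108 and 103 CPM in knockouts (log2 fold change -0.46, SE 0.07, limma adjusted p = 0.00012), with every knockout below every control. Clstn1 and Clstn3 were not called, at -0.09 and -0.03. In the SynCAM family, immunoglobulin proteins that bind each other across the cleft, 2 of 4 rose. Cadm1 was at 319, 275, 327 and 317 against 392, 369, 438 and 398 CPM (log2 fold change 0.37, SE 0.06, limma adjusted p = 0.00051). Cadm3 was at 329.6, 343, 317 and 325 against 425, 435, 431 and 388 CPM (log2 fold change 0.35, SE 0.05, limma adjusted p = 9.5e-05). Neither overlapped between genotypes. Cadm3 shares 361 exon bases, 4.98% of its own, with Ackr1 on the same strand, and Ackr1 was also higher (log2 fold change 0.52). Cadm2 and Cadm4 were not called, at -0.09 and -0.16.

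Contactins and contactin-associated proteins moved both ways. Cntn6, a contactin that binds Chl1, was at 33.1, 29.8, 32.9 and 32.9 CPM in controls and 56.8, 54.3, 56.9 and 57.1 CPM in knockouts (log2 fold change 0.80, SE 0.07, limma adjusted p = 6.1e-07). Cntnap3 was at 10.0, 9.96, 9.89 and 9.23 against 21.7, 20.6, 13.9 and 17.2 CPM (log2 fold change 0.86, SE 0.13, limma adjusted p = 0.00022). Both groups of Cntn6 were tight and far apart, and the Cntnap3 knockouts split into DJ1 and DJ2, the higher, and DJ4 and DJ5. Cntnap5a was at 119.7, 124, 125 and 139 against 160.3, 168, 144 and 139.8 CPM (log2 fold change 0.27, SE 0.07, limma adjusted p = 0.012). Cntnap5b was at 17.1, 19.8, 18.1 and 17.6 against 21.2, 29.9, 22.5 and 24.0 CPM (log2 fold change 0.41, SE 0.11, limma adjusted p = 0.018). The knockouts of both lay just above the controls. The 3 Cntnap5 genes share 0.523% to 1.43% of their 50-base stretches. Cntnap5a lost its call without DJ2 (limma adjusted p = 0.054) and in the fit of all 16 libraries (0.19), and Cntnap5b without DJ8 or DJ2 (up to 0.078).

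Cntnap1 and Cntn2, both molecules of myelinated axons, fell. Cntnap1, the paranodal partner of Cntn1, was at 95.9, 118, 97.1 and 109 CPM in controls and 71.8, 86.3, 81.2 and 83.5 CPM in knockouts (log2 fold change -0.38, SE 0.08, limma adjusted p = 0.0024). Cntn2, which joins Cntnap2 at juxtaparanodes and is also made by oligodendrocytes, was at 76.3, 83.4, 79.0 and 76.8 against 54.3, 65.4, 58.9 and 66.9 CPM (log2 fold change -0.36, SE 0.07, limma adjusted p = 0.0022). Every knockout was below every control for both, and the myelin markers fell in the same libraries. Their calls were lost with the myelin covariate (limma adjusted p = 0.12 for Cntnap1 at a log2 fold change of -0.61, and 0.46 for Cntn2 at -0.34), and that of Cntn2 also in the fit of all 16 libraries (0.090). Cntnap2 and Cntn1 were not called in cortex, at 0.01 and -0.02. Cntn4 was not called either (log2 fold change 0.13, SE 0.13): the controls were at 131, 121, 118 and 131 CPM, knockouts DJ1 and DJ2 below all of them at 107 and 110.4 CPM, and knockouts DJ4 and DJ5 above all of them at 176 and 170.1 CPM.

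Lingo1 and Lingo2 rose. Lingo1, a leucine-rich repeat protein of the Nogo receptor complex, was at 174, 172, 170.2 and 180.4 CPM in controls and 221, 194, 211 and 196 CPM in knockouts (log2 fold change 0.24, SE 0.05, limma adjusted p = 0.0066). Lingo2 was at 30.2, 38.1, 38.9 and 40.6 against 58.4, 56.7, 56.4 and 52.5 CPM (log2 fold change 0.60, SE 0.09, limma adjusted p = 0.00012). Neither overlapped between genotypes. Lingo3 was not called, at 0.14.

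**Figure D2:**
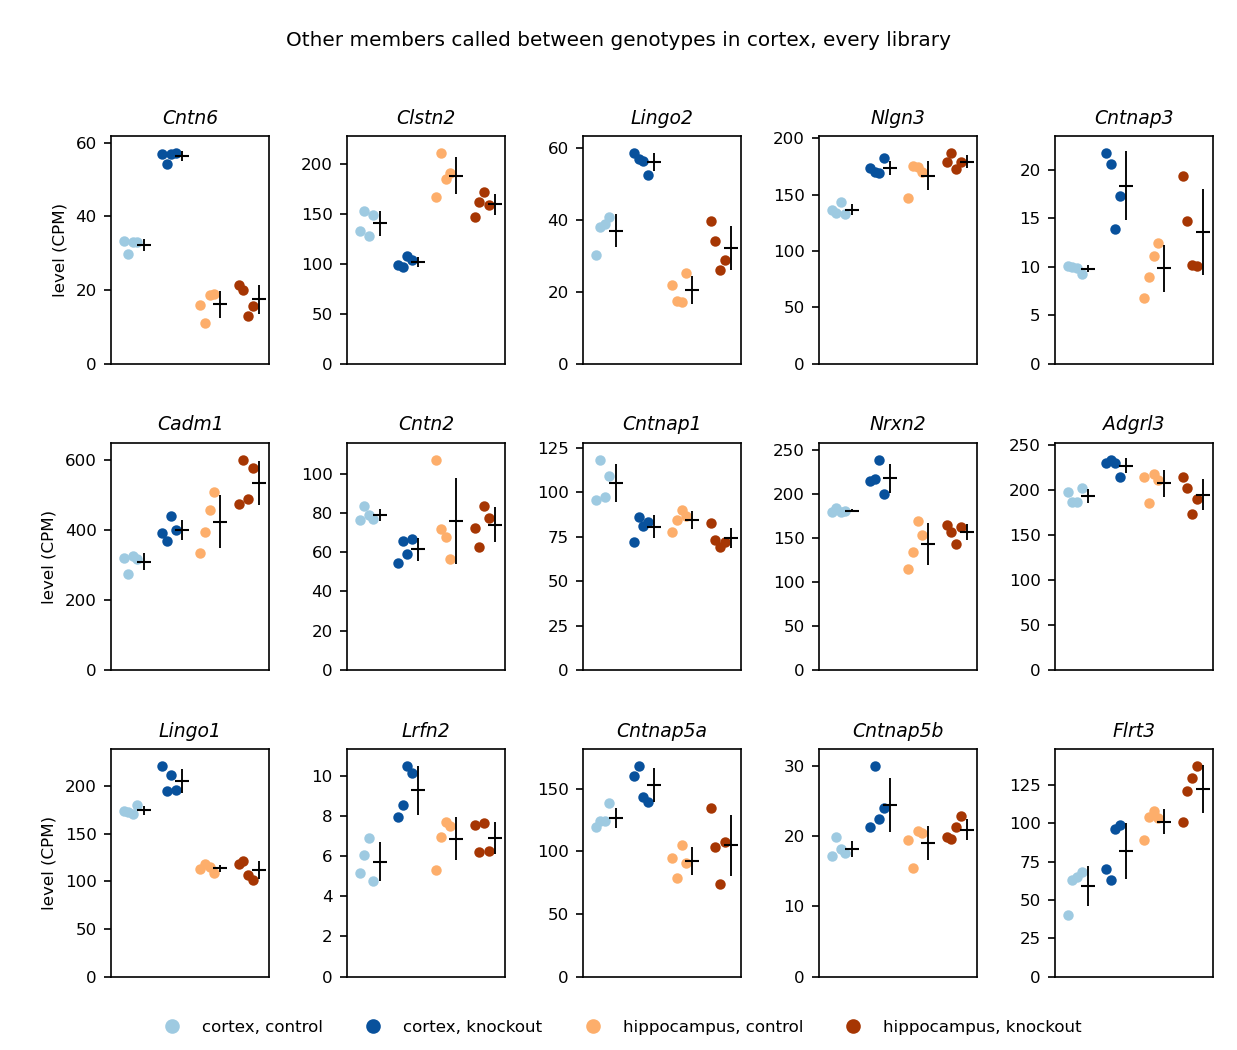
Level in CPM of the 15 members called between genotypes in cortex whose genotype effect was not called as different between regions, 1 point per library, with the mean and SD of each group of 4 beside it. Cntn6 separates the cortical genotypes by 21 CPM or more, while Flrt3 overlaps.

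Hippocampus gave few calls. Of the 54 members, 2 were called, both lower in knockouts, against 1.38% of all genes tested (0.719% lower). The median log2 fold change was 0.01 for the members and 0.06 for all 13899 genes. Cntnap2, which clusters potassium channels at juxtaparanodes and is a neurexin relative, was at 283, 310.1, 337 and 289 CPM in the 4 controls and 244, 223, 234 and 244 CPM in the 4 knockouts (log2 fold change -0.36, SE 0.07, limma adjusted p = 0.021). Lrrtm1 was at 75.8, 81.2, 75.1 and 79.4 against 52.1, 60.2, 64.3 and 62.8 CPM (log2 fold change -0.38, SE 0.08, limma adjusted p = 0.035). Every knockout was below every control for both genes. Cntnap2 lost its call without DJ20, DJ21, DJ16 or DJ19 (limma adjusted p up to 0.095), and Lrrtm1 without these or DJ22 (up to 0.14) and among DJ18 to DJ22 alone (0.061). The count was 0 by limma without control DJ20, control DJ21, knockout DJ16 or knockout DJ19, with 15 members at an unadjusted p below 0.05 in each, against 18 with every library, and calls over all genes fell to between 0.403% and 0.654%. It was 4 without knockout DJ18, where 1.90% of all genes were called. It was 2 by edgeR. Lrrtm1 lies within an intron of Ctnna2 on the opposite strand, whose log2 fold change was 0.15 (limma adjusted p = 0.47).

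The members next in order of p did not pass. Lingo2 was at 21.9, 17.5, 17.1 and 25.2 CPM in controls and 39.6, 34.0, 25.9 and 28.7 CPM in knockouts (log2 fold change 0.64, SE 0.15, limma adjusted p = 0.072). Slitrk6 was at 7.62, 5.64, 5.82 and 6.14 against 3.66, 2.45, 1.75 and 4.62 CPM (log2 fold change -0.97, SE 0.24, limma adjusted p = 0.076). Flrt2, a Flrt protein that binds latrophilins and Unc5 receptors, was at 155, 166, 175 and 141 against 132, 125, 138 and 118 CPM (log2 fold change -0.31, SE 0.08, limma adjusted p = 0.083). None of the 3 overlapped between genotypes. Among the rest, Slitrk4, Nxph3 and Slitrk2 also had groups that did not overlap, with log2 fold changes of -0.40, 0.92 and 0.20. For Nxph3 and Slitrk2 the groups all but touched. Control DJ21 and knockout DJ19 were both at 3.27 CPM for Nxph3, and control DJ22 and knockout DJ15 at 105.6 and 105.9 CPM for Slitrk2. The share of all genes without overlap was not computed. Markers of several cell types moved with genotype in hippocampus. Of 7 CA1 pyramidal markers 4 were called lower (227 to 301 CPM summed in knockouts against 340.5 to 438 in controls). Of 6 CA3 markers 1 was called higher and 1 lower (418 to 489.7 against 535 to 575 CPM), and of 7 dentate granule markers 1 higher and 1 lower, with sums that overlapped (787 to 892 against 675 to 868 CPM). Of 6 cortical upper-layer markers 1 was called higher (573 to 681 against 437 to 493 CPM), and of 7 deep-layer markers 0 were called (714 to 793 against 625 to 693 CPM). Calb1, on both the upper-layer and the granule list, averaged 230 CPM in control and 320 CPM in knockout hippocampus. The part of these cell types in the members' values was not tested. Control DJ17, with the high myelin sum, was high for Cadm2, at 1468, 1109, 983 and 917 CPM in controls against 863, 853, 989 and 759.9 CPM in knockouts (log2 fold change -0.35, SE 0.13, not called). With the myelin level as a covariate 7 members were called, Cntnap2 and Lrrtm1 among them, while 2.63% of all genes were. With the striatal level as a covariate 5 were called, without Lrrtm1, and 1.93% of all genes.

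**Figure D3:**
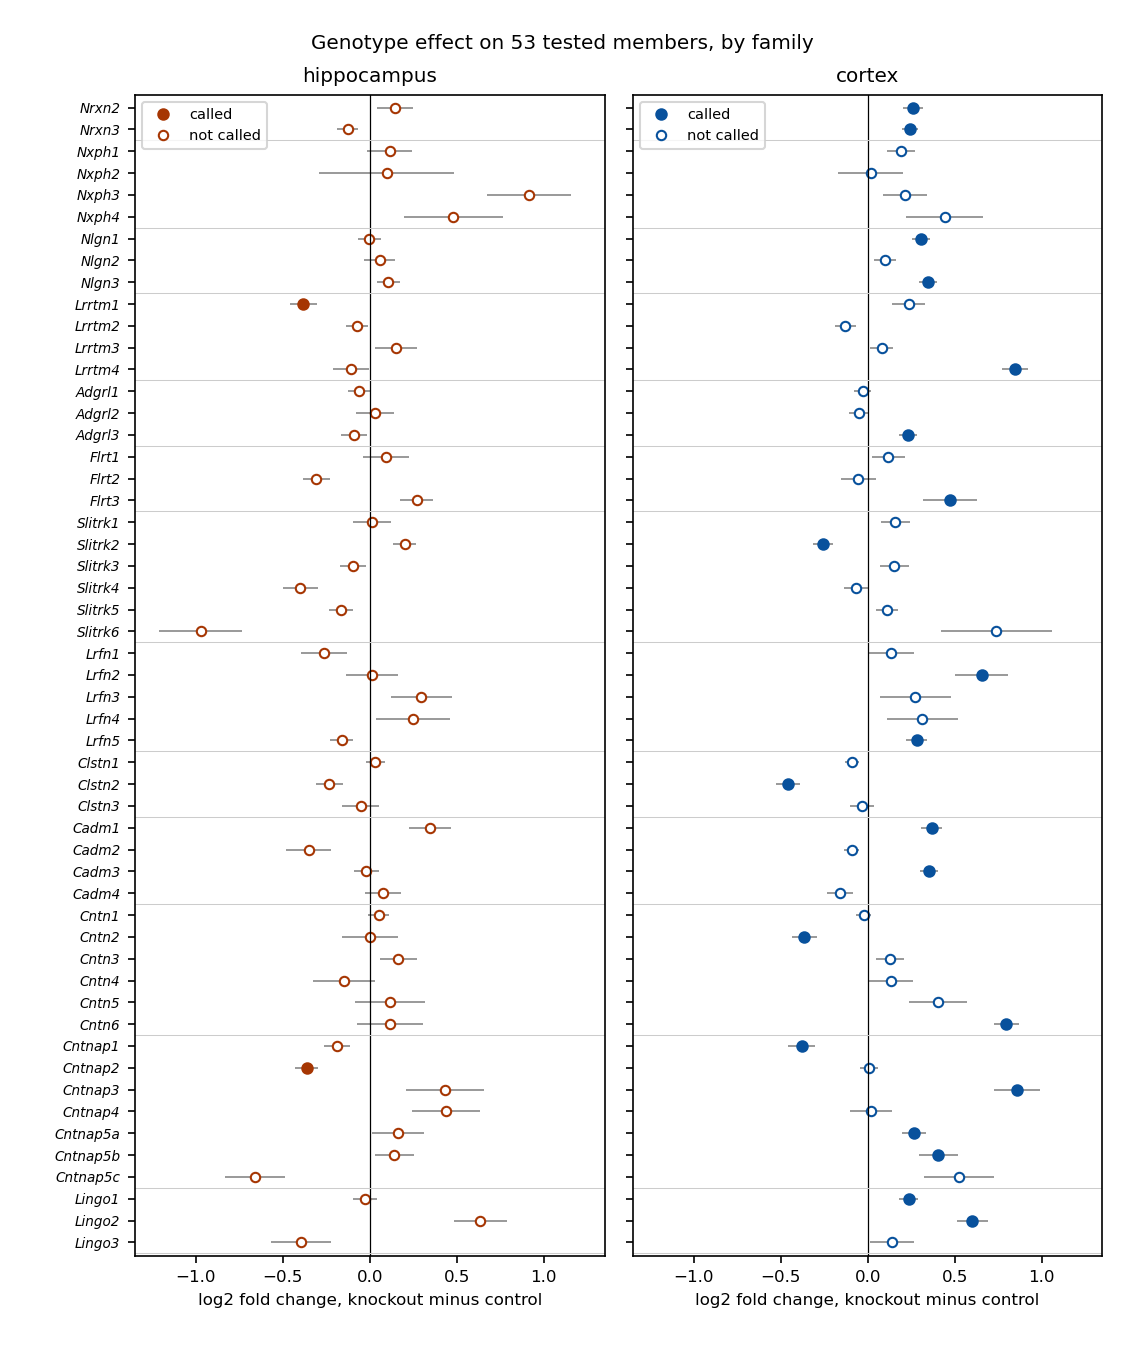
Log2 fold change, knockout minus control, of 53 tested members in hippocampus (left) and cortex (right), grouped by family and divided by lines, with bars of 1 SE and filled points for called members. Cortex holds 21 filled points, 17 of them right of 0, and hippocampus 2, both left of 0.

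The genotype effect itself was then compared between regions, over all 16 libraries. Of the 54 members, 10 were called, 1 positive and 9 negative, against 2.72% of all genes tested (1.17% positive and 1.55% negative). The difference, hippocampal effect minus cortical effect, was negative for Lrrtm4, Lrfn5, Nrxn3, Lrrtm1, Cntnap2, Cadm3, Cntnap5c, Slitrk6 and Nlgn1 and positive for Slitrk2. Over the 54 members its median was -0.13, and over all genes 0.02. Lrrtm4, Slitrk2, Lrfn5, Nrxn3, Lrrtm1 and Cntnap2 stayed called whichever single library was dropped.

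Lrrtm4 had the smallest p of the 10. In hippocampus it was at 77.1, 71.5, 58.0 and 67.7 CPM in controls and 69.3, 68.8, 54.1 and 61.8 CPM in knockouts (log2 fold change -0.11, SE 0.10), so the groups overlapped there, while it rose by 0.85 in cortex (difference -0.96, SE 0.13, limma adjusted p = 0.00023). Lrrtm1, by contrast, fell in hippocampus and was at 32.6, 31.4, 38.3 and 37.1 against 44.6, 35.9, 46.5 and 38.0 CPM in cortex, which was not called (difference -0.62, SE 0.13, limma adjusted p = 0.010). The 2 Lrrtm genes thus shared a negative difference, with the called genotype change in cortex for Lrrtm4 and in hippocampus for Lrrtm1. The cortical means of Lrrtm1, 34.9 CPM in controls and 41.2 CPM in knockouts, also added to its difference. Lrrtm2 and Lrrtm3 were not called for it, at 0.05 and 0.07. Of the exon bases of Lrrtm4, 25.1% are shared with the antisense gene Gm4409, whose reads could not be told apart if counting ignored strand.

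Slitrk2 was the 1 member with a positive difference. Its hippocampal values were 103, 97.1, 94.8 and 106 CPM in controls and 106, 122, 114 and 119 CPM in knockouts (log2 fold change 0.20, not called), with every knockout at or above the highest control, against its fall in cortex (difference 0.46, SE 0.08, limma adjusted p = 0.0037). Lrfn5 was at 95.8, 108, 107 and 103 against 88.8, 99.2, 88.2 and 94.0 CPM in hippocampus, where DJ17 was the lowest control (-0.16; difference -0.44, SE 0.09, limma adjusted p = 0.0064). Nrxn3 was at 705, 617, 721 and 664 against 596, 652, 627 and 599 CPM (-0.13; difference -0.37, SE 0.08, limma adjusted p = 0.0080). Both rose in cortex and overlapped between genotypes in hippocampus. Cntnap2, called in hippocampus, was at 242, 269, 271 and 255 against 246, 266, 268 and 265 CPM in cortex, where the genotypes overlapped nearly throughout (difference -0.37, SE 0.08, limma adjusted p = 0.016).

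The calls of the other 4 were less stable. Cadm3 was at 255, 304, 305 and 301 CPM in control hippocampus and 315, 281, 276 and 276 CPM in knockout hippocampus (difference -0.37, SE 0.09, limma adjusted p = 0.025). DJ17 was low among the controls and DJ15 high among the knockouts. Nlgn1 was at 293, 260.0, 288 and 284 against 260.3, 308, 283 and 273 CPM (difference -0.31, SE 0.08, limma adjusted p = 0.045). Cntnap5c was at 12.6, 14.0, 24.5 and 14.2 CPM in knockout hippocampus and 4.20, 7.72, 8.42 and 5.78 CPM in knockout cortex (difference -1.18, SE 0.28, limma adjusted p = 0.025), and knockout DJ18 matched the hippocampal controls while the other 3 knockouts lay between 12.6 and 14.2 CPM. Slitrk6 was at 3.32, 2.57, 1.10 and 3.27 CPM in knockout cortex (difference -1.71, SE 0.44, limma adjusted p = 0.040). Each of these 4 lost its call without several single libraries: Cadm3 without DJ7, DJ8, DJ2, DJ4, DJ20, DJ21, DJ22 or DJ19 (limma adjusted p up to 0.064), Cntnap5c without DJ7, DJ8, DJ2, DJ4, DJ20, DJ21, DJ16 or DJ19 (up to 0.063). Slitrk6 lost it without DJ3, DJ6, DJ8, DJ1, DJ2, DJ5, DJ20, DJ21, DJ22, DJ16 or DJ18 (limma adjusted p up to 0.083), and Nlgn1 without DJ3, DJ6, DJ7, DJ1, DJ2, DJ5, DJ21, DJ22, DJ15, DJ18 or DJ19 (up to 0.099). The count of members called was 6 without DJ2 or DJ21, where 2.08% and 2.097% of all genes were called. By edgeR 10 members were called, 8 of them the same, Cntnap5c (0.051) and Nlgn1 (0.071) being lost. Restricted to DJ4 through DJ8 with DJ18 through DJ22, 13 were called, 8 of the 10 among them, and 5.58% of all genes.

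**Figure D4:**
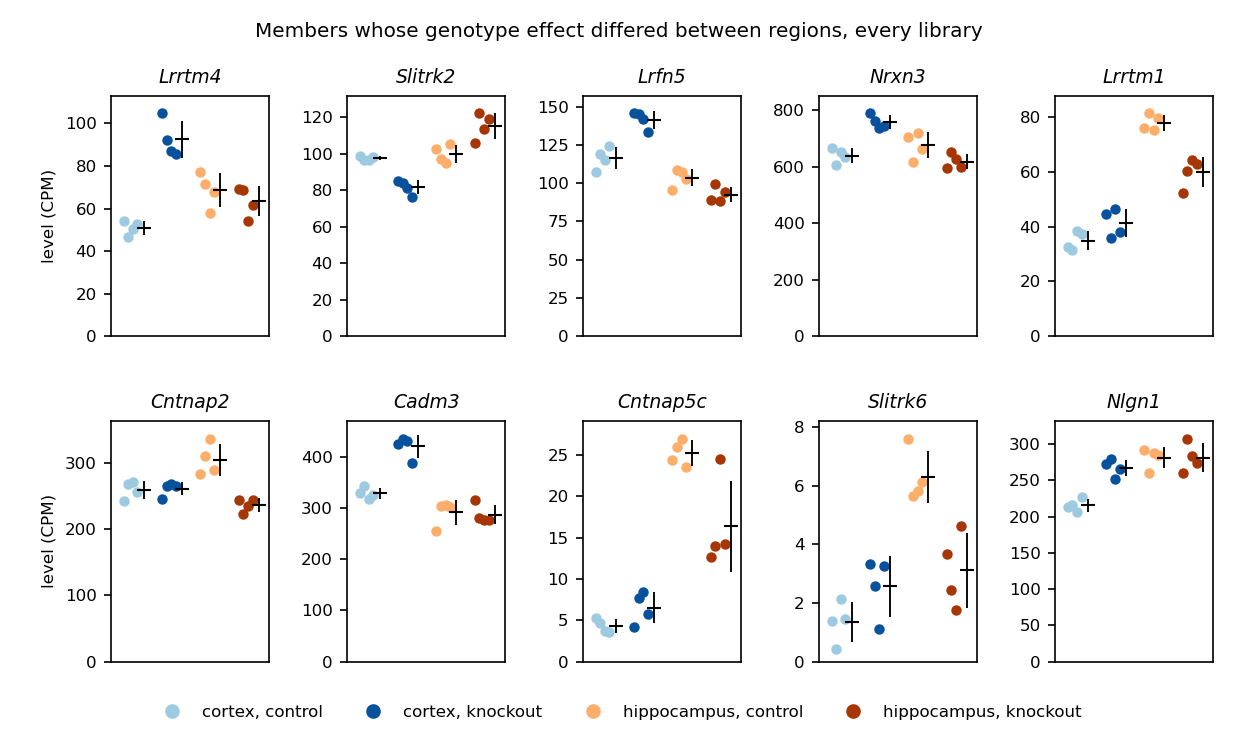
Level in CPM of the 10 members whose genotype effect was called as different between regions, 1 point per library, with the mean and SD of each group of 4 beside it. Lrrtm4 is highest in knockout cortex, Lrrtm1 and Cntnap2 are highest in control hippocampus, and Slitrk2 is lowest in knockout cortex.

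These shifts changed how the regions stood to each other in knockouts. Between knockout hippocampus and knockout cortex 39 of 54 members were called (9 higher and 30 lower in hippocampus), against 34.6% of all genes tested, and 29 of them had the same direction as in controls. Lrrtm4 was the 1 member called in opposite directions: it was higher in hippocampus by 0.42 in controls and lower by 0.54 in knockouts (limma adjusted p = 0.00030). Called in controls alone were Cntnap1, Cntnap2, Nlgn1, Nlgn3, Slitrk5 and Slitrk6. Called in knockouts alone were Adgrl3, Cadm2, Cntn2, Lrfn1, Lrfn2, Lrfn5, Nrxn3, Slitrk2 and Slitrk4. Of those 15, Cntnap2, Nlgn1, Slitrk6, Lrfn5, Nrxn3 and Slitrk2 were also called for the difference itself, and for the other 9 a difference between genotypes was not called. In knockouts 7 calls were lost when 1 library was left out: those of Lrrtm2 (without DJ4, DJ5 or DJ19), Adgrl3 (without DJ2, DJ18 or DJ19), Nlgn2 (without DJ1, DJ4, DJ18 or DJ19), Cntn2 (without the same 4), Lrfn1 (without DJ1, DJ2, DJ4, DJ15, DJ18 or DJ19), Lrfn2 (without DJ2, DJ4, DJ5, DJ16 or DJ19) and Nxph4 (without DJ1, DJ4, DJ5, DJ18 or DJ19), at limma adjusted p up to 0.15. Cntn2 was also not called by edgeR (0.11).

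**Figure D5:**
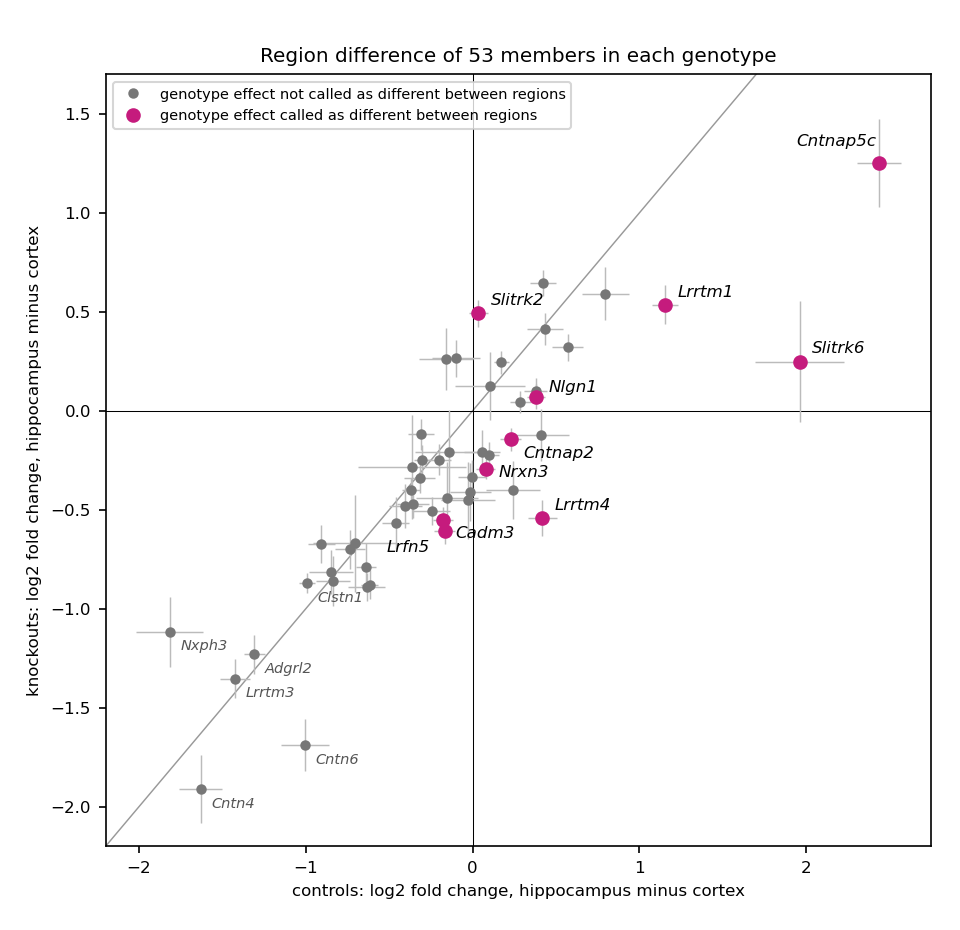
Log2 fold change, hippocampus minus cortex, of 53 members in controls (horizontal) and in knockouts (vertical), with bars of 1 SE and a line of equality. Coloured points are the 10 members whose genotype effect was called as different between regions, and Lrrtm4 lies right of 0 and below 0.

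The list of 88 partners and neighbours of these proteins held 87 tested genes in hippocampus, of which 2 were called (1 higher and 1 lower), against 1.38% of all genes. Gpc4, a glypican that binds Lrrtm4, went from 20.05 ± 2.31 to 29.4 ± 3.51 CPM, mean ± SD of 4 libraries (limma adjusted p = 0.042 at a log2 fold change of 0.54). Nptx2, a secreted pentraxin that gathers AMPA receptors, went from 11.9 ± 0.8597 to 7.57 ± 1.04 CPM, mean ± SD of 4 libraries (limma adjusted p = 0.041 at a log2 fold change of -0.62). Dropping any 1 of DJ20, DJ21, DJ22, DJ16, DJ18 or DJ19 ended both calls (limma adjusted p as high as 0.17). By edgeR, and after median-of-ratios rescaling, 0 partners were called higher and 3 lower, so the rise of Gpc4 was not called. With no expression minimum 0 partners were called in hippocampus (0.751% of all genes). With the striatal level as a covariate 6 were called higher and 0 lower (1.93% of all genes), so the fall of Nptx2 was not called. In cortex 43 of 85 tested were called, 24 higher and 19 lower, against 13.5% of all genes. By role these were 2 of 3 LAR-type phosphatases (both lower), 8 of 17 secreted ligands (4 higher and 4 lower), 24 of 39 other surface proteins (14 higher and 10 lower) and 9 of 26 intracellular partners (6 higher and 3 lower). With the myelin level as a covariate 5 partners were called in cortex (1.37% of all genes). With the striatal level as a covariate 26 were called (8.15%), and in the fit of all 16 libraries 30 (10.5%).

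The 6 partners with the smallest p in cortex were Ncam2, Chl1, Lgi2, Adam23, Il1rap and Nptxr. Chl1, the surface partner of Cntn6, rose with it, from 351 ± 22.3 to 529 ± 35.0 CPM, mean ± SD of 4 libraries (limma adjusted p = 1.5e-06 at a log2 fold change of 0.59). The pentraxin receptor gene Nptxr rose from 482 ± 8.37 to 652 ± 48.3 CPM, mean ± SD of 4 libraries (limma adjusted p = 1.8e-05 at a log2 fold change of 0.43). Ncam2, a neural cell adhesion molecule, fell from 224 ± 10.4 to 144 ± 8.92 CPM, mean ± SD of 4 libraries (limma adjusted p = 6.5e-07 at a log2 fold change of -0.64). The secreted epilepsy-related ligand gene Lgi2 fell by 0.59, its receptor gene Adam23 by 0.50 and Il1rap, a ligand of LAR-type phosphatases, by 0.63 (limma adjusted p = 5.3e-06, 9.9e-06 and 1.6e-05). Gpc4 rose in cortex too (log2 fold change 0.87, SE 0.14, limma adjusted p = 0.00035), as did its binding partner Lrrtm4. Kcna1 and Kcna2, potassium channels that Cntnap2 and Cntn2 gather at juxtaparanodes, fell by 0.74 and 0.50. These 2, and Gpc4 in cortex, were picked after their values were seen. For the difference between regions 13 of 86 partners were called, against 2.72% of all genes, led by Chl1 (-0.79, SE 0.10, limma adjusted p = 8.3e-05), Lgi2 (0.88, SE 0.15, limma adjusted p = 0.0015), Ppfia2 (-0.50, SE 0.09, limma adjusted p = 0.0036), Nptx2 (-0.95, SE 0.18, limma adjusted p = 0.0049), Magi3 (-0.46, SE 0.09, limma adjusted p = 0.0049) and Adgrb3 (-0.51, SE 0.10, limma adjusted p = 0.0055).

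The members called higher in knockout cortex had long spans. Their median span in the annotation (GENCODE M21, GRCm38) was 335 kb, against 34.0 kb for the 33 members tested and not called, 27.0 kb for the 4 that fell and 93.0 kb for all 55. Over all genes, the median span was 46.1 kb for those higher in knockout cortex, 57.0 kb for those lower and 25.2 kb for those not called, and the called genes were also the more abundant. These are descriptions of sets chosen by the call itself.

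In the authors' deposited table for hippocampus 4 members are listed among 243 genes, all lower: Cadm2 (-0.43), Cntnap2 (-0.42), Cntnap5c (-0.67) and Slitrk4 (-0.45). Of these the limma fit called Cntnap2, while Lrrtm1, its other call, is not listed there. In the authors' deposited table for cortex 11 members are listed among 874 genes, higher for Cadm1, Cadm3, Cntn6, Cntnap3, Flrt3, Lingo2, Lrrtm4 and Nlgn3 and lower for Clstn2, Cntn2 and Cntnap1. All 11 were called here with the same sign. The rest of the 21 called here are not listed there: Nlgn1, Nrxn2, Nrxn3, Adgrl3, Lrfn2, Lrfn5, Slitrk2, Lingo1, Cntnap5a and Cntnap5b. The authors' deposited table of overlaps places Cadm1, Cntn6, Cntnap3 and Nlgn3 of the cortical genes, and Cadm2, Cntnap2 and Cntnap5c of the hippocampal ones, among autism-associated genes. A separate authors' deposited table for heterozygous Foxp1 knockout mice lists 652 genes as higher, of which 7 are members, Cntn6 and Lingo2 among them. It lists 724 genes as lower, of which 11 are members, among them Clstn2, Cntnap1 and Cntnap5c. In that authors' deposited table Cadm3, Flrt3 and Lingo1 are lower, whereas they were higher in the conditional knockout cortex. In conditional knockout hippocampus Cadm3, Flrt3 and Lingo1 were not called. The label of the heterozygous list, as used here, names no brain region, so whether like regions are being compared is not known.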

How the data were processed

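RNA-seq was measured in 16 libraries of 4 groups, mapped to groups through their titles. Per the submitters' processing notes the tools were STAR, HTSeq and edgeR with mm10/GRCm38; no version, strand setting or annotation is given in the sources used here. The authors deposited CPM values per gene, and 100.0% of them came out as whole reads within a tolerance of 0.001, which gave the depths printed. The authors' deposited tables of changed genes hold log2 fold changes and adjusted p-values (FDR), whose making is not described beyond edgeR being named. Groups were compared with limma 3.58.1 (R 4.3.3, trend) on log2(CPM + 0.5), for genes averaging at least 0.5 CPM over the samples of the fit, with Benjamini-Hochberg adjustment over all genes and calls below 0.05. Each region or genotype was fitted alone, and the difference between regions over all 16 libraries. Alternatives were edgeR 4.0.16 quasi-likelihood on the recovered reads, other pseudocounts, minimums and scalings, 1 fit of all libraries, each library left out, and fits with a marker level or fewer libraries. The scripts were tested on simulated data. Replicates were distinct: the chi-square per degree of freedom was 2.14 to 17.1 over 24 pairs. Python 3.11.15, pandas 2.3.3 and matplotlib 3.10.9 were used.

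The members and the lists of partners and markers were chosen with earlier results of these data known. Values per library are given for members called in a genotype fit or for the difference between regions, for up to 5 with the smallest p where a fit called fewer, and for the 8 largest called differences between control regions in each direction whose groups did not overlap (largest first, the others as ranges). Of the partners, up to 6 called genes per fit with the smallest p are named by rule; Kcna1, Kcna2 and the cortical value of Gpc4 were added after values were seen. Values of 1 member are not reported here; the figures leave it out, and the counts include it. Exon lengths come from GENCODE M21.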

Additional observations from a re-analysis of the deposited data

Results flagged for a closer look

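In 92 sets of 4 libraries of the members whose values or ranges are given, 10 held 1 library far from the other 3. Chance gives about 1 in 20 for independent sets. These members were chosen by call, smallest p or lack of overlap and share their libraries, so an excess over chance was not tested. In control cortex these were DJ6 for Adgrl2 (235 CPM, the others 220.1 to 222) and for Cntn6 (29.8 CPM, the others 32.9 to 33.1), DJ8 for Cntnap3 (9.23 CPM, the others 9.89 to 10.0) and DJ3 for Slitrk3 (84.6 CPM, the others 112 to 115). In knockout cortex they were DJ2 for Cntn6 (54.3 CPM, the others 56.8 to 57.1) and DJ1 for Cntnap2 (246 CPM, the others 265 to 268). In control hippocampus they were DJ17 for Cadm3 (255 CPM, the others 301 to 305) and DJ20 for Cntn4 (28.2 CPM, the others 43.1 to 46.0). In knockout hippocampus they were DJ15 for Cadm3 (315 CPM, the others 276 to 281) and DJ18 for Cntnap5c (24.5 CPM, the others 12.6 to 14.2).

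The genotype effect differed between regions, tested as an interaction with limma, for 10 members. The differences, hippocampal minus cortical log2 fold change, were -0.96 for Lrrtm4, 0.46 for Slitrk2, -0.44 for Lrfn5, -0.37 for Nrxn3, -0.62 for Lrrtm1, -0.37 for Cntnap2, -0.37 for Cadm3, -1.18 for Cntnap5c, -1.71 for Slitrk6 and -0.31 for Nlgn1. For Cadm3 and Cntnap5c the libraries apart from their group, DJ17, DJ15 and DJ18, are part of that test. Without DJ17, 14 members were called for the difference, and 5.04% of all genes against 2.72% with it.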

How the results depend on the processing

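No paired analysis was possible because the library numbers are unique and no group shares one with another. The counts of members and partners called stayed within 1.5 times the reported count in 98 recomputed values, were higher in 4 and lower in 7. Partner counts entered that tally only for other pseudocounts, rescaling by median-of-ratios or quantiles, and edgeR. Outside it, 5 partners instead of 43 were called in cortex with the myelin covariate. In hippocampus 0 instead of 2 were called with no expression minimum or without DJ20, DJ21, DJ16 or DJ19. In hippocampus 5 members instead of 2 were called in 1 fit of all 16 libraries, 7 with the myelin level and 5 with the striatal level as a covariate, while 3.24%, 2.63% and 1.93% of all genes were called in these fits against 1.38%. Leaving out 1 library gave 0 to 4 in hippocampus and 6 to 14 for the difference between regions. In cortex 4 instead of 21 were called with the myelin covariate (1.37% of all genes against 13.5%), where the genotypes' myelin levels do not overlap, and the log2 fold change of Flrt3 was -0.072 (0.47 as reported). Of the values of single named members under the alternatives, 879 stayed on the same side of the threshold, 103 lost the call, 7 gained it and 1 turned. For members near 1 CPM, such as Slitrk6 in cortex, counting error limits the values. How counting treated strand is unknown for members that share exons with other genes.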

Other observations

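Some members split the 4 cortical knockouts without a group label to match. Slitrk1 was at 201, 195, 152 and 153 CPM in DJ1, DJ2, DJ4 and DJ5, and at 150.2 to 163 CPM in the controls. Cntn4 split the same libraries the other way, as given above. Flrt2 was at 186, 272, 279 and 263 CPM in the cortical controls, with DJ3 lowest, as it was for Flrt3 and Slitrk3. The labels do not say in what these libraries differ.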
